A study of Mus musculus with 6 samples.

Results

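The nuclear genes of the mitochondrial respiratory chain were examined in the corneal epithelium of mice that lack RelA, the p65 subunit of the canonical NF-kappa B complex, in Krt14-expressing cells. The genes were taken by symbol from the deposited gene table: every symbol that starts with Nduf (Ndufaf assembly factors left out), Sdha, Sdhb, Sdhc, Sdhd, Uqcr, Cox4, Cox5, Cox6, Cox7, Cox8 or Atp5. The rule gave 87 of the 17554 genes in the table, and used no measured value. Of these, 79 encode structural subunits: 36 of complex I, 4 of complex II, 8 of complex III, 15 of complex IV and 16 of complex V. The other 8 genes share the prefixes without being subunits of the assembled complexes. They are the complex II assembly factors Sdhaf1, Sdhaf2, Sdhaf3 and Sdhaf4, the coupling factor B gene Atp5s, the Ndufa4 paralog Ndufa4l2, and Ndufa11b and Ndufb4c, which are named as copies of Ndufa11 and Ndufb4.

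Bulk RNA-seq was done on corneal epithelium separated from 2-month-old C57BL/6 mice. The control group held 3 samples labelled WT. The mutant group held 3 samples labelled Rela-/-, which the study describes as Krt14-Cre; Rela f/f mice. The study states that its engineered lines had been crossed repeatedly to B6 mice. Cre was driven by the Krt14 promoter, which is also active in conjunctiva, skin and oral mucosa, so that deletion of Rela was not limited to the corneal epithelium. The labels do not give the Cre or floxed alleles of the controls or whether a sample pooled several mice. The methods call the samples of each group independent. In bulk RNA, fewer cells of a type and less RNA per cell cannot be told apart.

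The libraries had 19492942 to 19733834 expected counts each, so that 3 counts correspond to 0.152 to 0.154 CPM (counts scaled to the library size). Rela, the targeted gene, lay at 36.5, 34.7 and 33.4 FPKM (fragments scaled by transcript length and library size) in the controls and at 4.93, 5.53 and 5.72 FPKM in the mutants, a log2 fold change of -2.75. The defining corneal epithelial markers Krt12, Krt5, Pax6, Aldh3a1 and Trp63 were abundant in all 6 libraries, and Krt14, which also belongs to that list, was higher in the mutants by 3.32 on the log2 scale. Aldh3a1 was called lower, at -0.25 (adjusted p = 0.047, edgeR), and Krt12 and Pax6 had lower values without overlap that did not pass the test. Of the 5 conjunctival and goblet cell markers, Krt13 was called lower at -0.45 (adjusted p = 0.015) and Krt4 had -1.01 without overlap (adjusted p = 0.091). Krt7 at -0.07 and Krt19 at 0.06 overlapped between the groups, and Muc5ac had at most 1 count in any library. The part of conjunctival cells in the members' values was not tested. The 6 corneal epithelial markers together had a summed level of 43660 to 47728 FPKM in the controls and 40507 to 43899 FPKM in the mutants. Mutant 1 stood apart from the other mutants. Its chi-square statistic per degree of freedom over genes was 19.8 against mutant 2 and 27.6 against mutant 3, whereas the other pairs within a group had 8.60 to 10.4. For some of the results that rest on it, values without it are therefore given too.

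The respiratory chain sits in the inner mitochondrial membrane. Complex I takes electrons from NADH and complex II takes them from succinate, both pass them to ubiquinone, complex III hands them on to cytochrome c, and complex IV reduces oxygen. Complexes I, III and IV pump protons, and complex V, the ATP synthase, uses the return of these protons to make ATP. Most subunits are encoded in the nucleus, and a small set, including the catalytic subunits of complex IV, is encoded in mitochondrial DNA. None of the symbols searched for that set was in the deposited gene table, so it was not analysed. The corneal epithelium is avascular and is known for a high content of glycogen and active glycolysis beside respiration.

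By their median, the subunit transcripts of complexes III, IV and V were more abundant than those of complexes I and II, in controls and mutants alike. Single genes overlapped between the complexes. On the FPKM scale, which accounts for transcript length, the median over the tested structural subunits in the controls was 33.0 for complex I, 33.0 for complex II, 63.6 for complex III, 103.6 for complex IV and 106.0 for complex V. The corresponding medians in the mutants were 32.9, 34.0, 64.9, 95.8 and 103.8 FPKM. Within complex I the control means ran from 11.5 FPKM for Ndufa11 to 75.8 FPKM for Ndufb11, and within complex V from 45.6 FPKM for Atp5mpl to 272.0 FPKM for Atp5b. Complex IV had the widest range, from 1.98 FPKM for the muscle isoform gene Cox7a1 to 390.8 FPKM for Ndufa4, the member with the highest level. All members together made up 0.426% to 0.50% of the expected counts of a library.

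**Figure D1:**
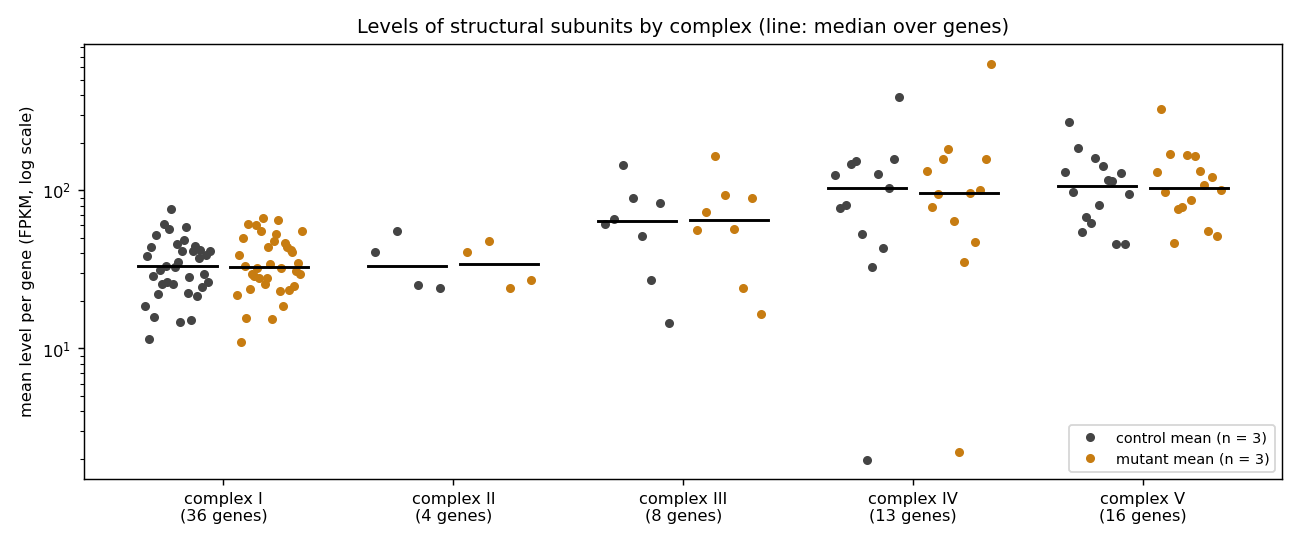
Mean level of each tested structural subunit gene (FPKM, log scale) in the 3 control and the 3 mutant samples, by complex, with the median over genes as a line. The medians of controls and mutants lie side by side in each complex, between 33.0 and 106.0 FPKM in the controls, and Ndufa4 is the top point of complex IV in both groups.

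What the members share beyond their names was looked for in the promoter sequences of RefSeq (GRCm38.p6), which cover 250 bases before and 50 after each start. Of the 87 members, 71 matched a promoter entry by gene identifier. The letters CCGGAAG, the core of sites for ETS factors such as GABP, occurred on either strand in the promoters of 26.8% of these members (19 of 71) and of 9.93% of all 27025 genes with an entry. The letters GCATGCGC, the greater part of the palindrome bound by NRF1, occurred in 14.1% of the members (10 of 71) and in 3.05% of all genes. The letters AAGATGGC of YY1 sites occurred in 14.1% of the members (10 of 71) and in 3.19% of all genes. The NF-kappa B letters GGACTTTCC occurred in 0 of 71 members and in 0.400% of all genes. With a match this rare, 0 of 71 cannot show that the members differ from other genes. A match describes letters and not a bound site, and GCATGCGC can overlap itself on the opposite strand, as it did in Cox6a1. The promoters of Ndufa4 and Cox7a2l are shown because these structural subunits differed most between the groups, and that of Cox6a1 because it is the member with the highest level among those with an NRF1 match outside the gene bounds of the deposited table. Each sequence runs 5′ to 3′ towards the gene, ends no closer to it than those bounds, and has motif matches in capitals.
Ndufa4 (chr6:11907496-11907700, minus strand): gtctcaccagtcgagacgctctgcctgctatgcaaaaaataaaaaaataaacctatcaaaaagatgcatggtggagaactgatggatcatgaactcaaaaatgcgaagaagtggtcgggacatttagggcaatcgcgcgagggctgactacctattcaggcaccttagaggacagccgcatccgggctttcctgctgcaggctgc
Cox7a2l (chr17:83514334-83514583, minus strand): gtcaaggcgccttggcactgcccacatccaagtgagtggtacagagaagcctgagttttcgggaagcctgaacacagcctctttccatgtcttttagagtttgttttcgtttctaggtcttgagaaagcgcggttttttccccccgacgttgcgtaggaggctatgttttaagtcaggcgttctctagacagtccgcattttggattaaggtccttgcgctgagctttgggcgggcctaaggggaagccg
Cox6a1 (chr5:115348959-115349208, minus strand): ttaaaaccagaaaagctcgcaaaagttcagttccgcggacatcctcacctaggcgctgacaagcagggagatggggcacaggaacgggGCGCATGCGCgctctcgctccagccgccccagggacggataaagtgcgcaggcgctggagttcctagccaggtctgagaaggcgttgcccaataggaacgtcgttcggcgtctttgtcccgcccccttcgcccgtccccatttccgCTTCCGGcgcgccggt
Neither Ndufa4 nor Cox7a2l held any of the 4 motifs in its promoter entry. The 2 overlapping NRF1 matches of Cox6a1 lay 162 to 153 bases before the start, and its ETS match, read on the other strand, 16 to 10 bases before it. Among the tested members with an entry, the 19 with an ETS match had a median log2 fold change of 0.10 between mutants and controls and the 51 without one had 0.04. The 10 with an NRF1 match had 0.01 and the 60 without one had 0.06.

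The comparison of mutants with controls asks whether the transcripts of the chain differed where Rela was deleted. Of the 87 members, 84 passed the filter on low counts, and 5 of them were called at an adjusted p under 0.05 by edgeR's quasi-likelihood test, with p-values adjusted over all 12667 genes tested. Ndufa4, Cox6b1, Atp5b and Ndufa4l2 were higher in the mutants, and Cox7a2l was lower. Ndufa4l2 passed the filter only through the mutants, where it was high. Among the 77 tested structural subunits 4 were called, or 5.19%. The 5 calls make 5.95% of the tested members, and 13.2% of all tested genes were called. By direction, 4.76% of the members were called higher against 7.82% of all genes, and 1.19% were called lower against 5.42%. No member (0 of 84) passed the thresholds of the study, an adjusted p of at most 0.001 with a fold change of at least 2, by edgeR, as did 1.37% of all genes, and DESeq2 put 1 member past them, Ndufa4l2. At an unadjusted p under 0.05 there were 16 members, or 19.0%, against 28.1% of all genes.

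The differences were small and leaned to higher values in the mutants. The median log2 fold change was 0.07 over the 84 members and -0.003 over all tested genes, and 54 members had a positive value. The CPM values of the groups did not overlap for 16 members with higher and 4 members with lower values in the mutants, that is for 19.0% and 4.76% of the members against 17.3% and 16.4% of all genes. The 4 with lower values were Cox7a2l, Sdhb, Ndufv1 and Atp5e. For 78 of the 84 members the 95% interval of the fold change lay within 1.5-fold in either direction. Among the 79 members that were not called, the intervals of 75 lay within 1.5-fold, and those of Atp5g1, Cox7a1, Sdhaf3 and Sdhaf4 reached beyond it.

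**Figure D2:**
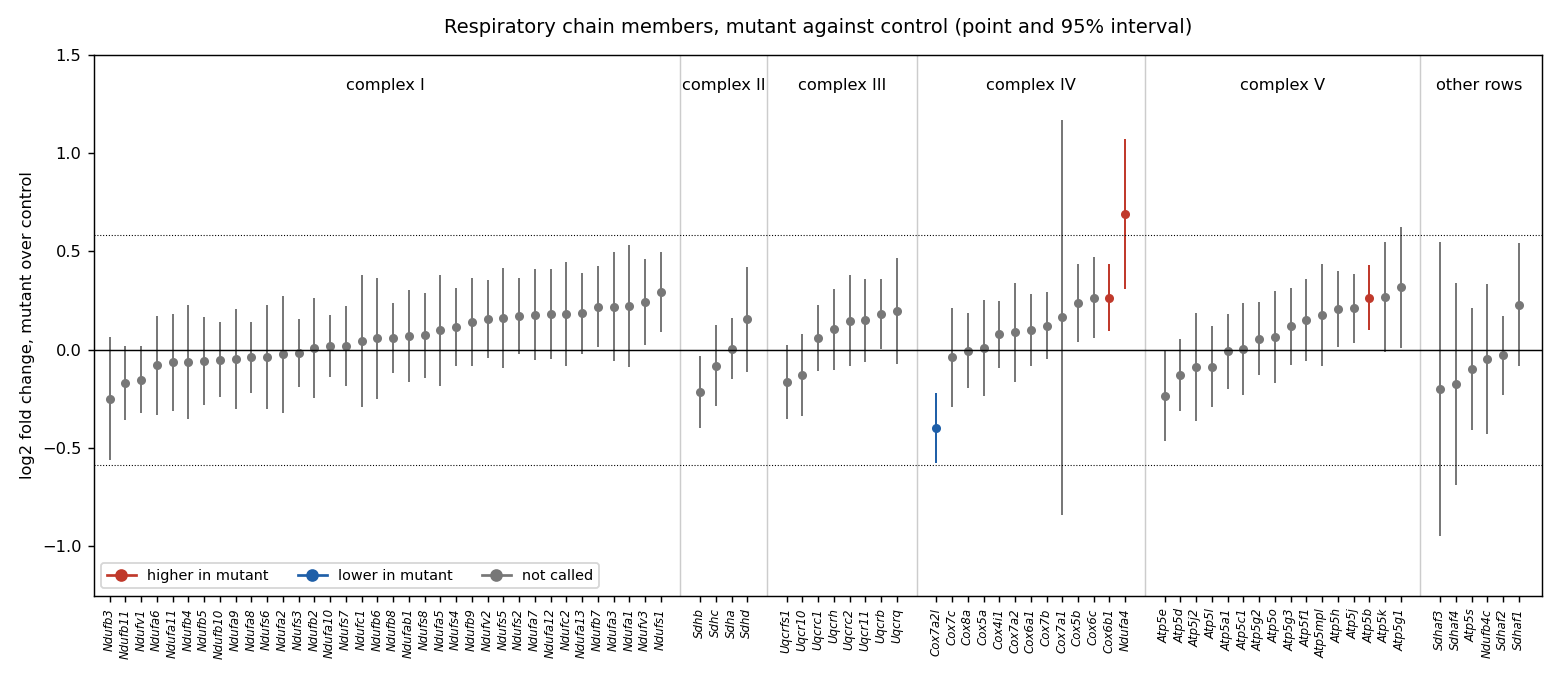
Log2 fold change of mutants over controls (point) with its 95% interval (line) for 83 tested members, grouped by complex and ordered by value, with dotted lines at a 1.5-fold change in either direction and Ndufa4l2, at 3.71, left out for its scale. Red and blue mark members called higher (Ndufa4, Cox6b1, Atp5b) and lower (Cox7a2l) in the mutants, and the intervals of all 36 complex I members lie between the dotted lines.

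None of the 36 members of complex I was called (0 by edgeR and by DESeq2, 3 at an unadjusted p under 0.05), their log2 fold changes ran from -0.25 to 0.29 with a median of 0.06, and all 36 intervals lay within 1.5-fold. The 7 core subunits, which carry the flavin and iron-sulfur clusters of the electron path, had a median of 0.07 and the 29 accessory subunits one of 0.06. Ndufb11, the member with the highest level in this complex, had 76.9, 73.0 and 77.3 FPKM in the controls and 73.2, 62.9 and 65.3 FPKM in the mutants. Its groups overlapped only through mutant 1, and its log2 fold change of -0.17 did not pass the test (adjusted p = 0.21, edgeR). Ndufs1 and Ndufv1, named here after their values were seen, lay at the ends of the core. Ndufs1, the largest iron-sulfur subunit, had 14.9, 15.4 and 14.9 FPKM against 20.6, 16.7 and 18.5 FPKM, without overlap, and a log2 fold change of 0.29 (SE 0.089, adjusted p = 0.059, edgeR). Ndufv1, the flavoprotein that accepts the electrons of NADH, had 39.1, 37.4 and 39.7 FPKM against 36.1, 34.5 and 34.1 FPKM. These groups also did not overlap, in the other direction, with a log2 fold change of -0.15 (adjusted p = 0.21, edgeR). Ndufv1 lies at chr19:4007499-4012755, on the chromosome of Rela. The part of sequence linked to the floxed allele in its values was not tested.

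Ndufv3, an accessory subunit of the NADH-oxidizing module that was also named after its values were seen, had the largest gap between the count and FPKM scales among the tested members above 10 FPKM. On counts its log2 fold change was 0.24 (adjusted p = 0.13, edgeR), with values of 862, 746 and 862 expected counts in the controls and 864, 1020 and 1052 in the mutants. On FPKM it had 43.6, 39.1 and 42.0 against 46.6, 59.7 and 59.6, a log2 ratio of the means of 0.41, and it was called higher in both limma fits on FPKM and in the edgeR fit without mutant 1. The effective transcript length that links the scales was 1006, 978 and 1050 bases in the controls and 952, 874 and 895 bases in the mutants, without overlap between the groups. RSEM weights this length by the transcript isoforms it assigns reads to. In the 76 other tested members above 10 FPKM the FPKM and count scales differed by -0.013 to 0.066 on the log2 scale, compared with 0.17 for Ndufv3.

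No call was made in complex II (0 of 4 by edgeR and by DESeq2), the only complex of the chain whose subunits are all encoded in the nucleus and which also works in the tricarboxylic acid cycle. Sdha, the flavoprotein that oxidizes succinate, had 40.8, 41.5 and 39.8 FPKM in the controls and 40.0, 39.8 and 43.0 FPKM in the mutants, and its fold change of 1.00 had a 95% interval of 0.904 to 1.11. Sdhb, the iron-sulfur subunit, had 57.4, 57.2 and 52.3 FPKM against 51.7, 45.5 and 47.0 FPKM. The groups of Sdhb did not overlap, and its log2 fold change of -0.21 (SE 0.079, adjusted p = 0.11, edgeR) passed the test only without mutant 1, at -0.28 (adjusted p = 0.034). The membrane anchors Sdhc and Sdhd overlapped between the groups, with log2 fold changes of -0.08 and 0.15. The summed level of the complex was 145.9 ± 4.34 FPKM in the controls and 140.3 ± 8.99 FPKM in the mutants (SD, n = 3).

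Complex III had a median log2 fold change of 0.13, with 6 of its 8 members above 0 and none called (0 by edgeR and by DESeq2, 1 at an unadjusted p under 0.05). The median turned to -0.02 with length offsets and to -0.04 with length and GC offsets. Uqcrb, a small subunit and its most abundant transcript, had 142.2, 142.5 and 149.8 FPKM against 173.3, 162.9 and 158.2 FPKM. Its groups did not overlap, and its log2 fold change was 0.18 (SE 0.077, adjusted p = 0.15, edgeR), which turned to -0.18 with length and GC offsets (adjusted p = 0.082). Of the 50-base windows of Uqcrb transcripts, 43.2% also occur in transcripts of other genes, so that its counts depend on how shared reads were divided. Cyc1, the cytochrome c1 subunit, which falls outside the prefixes, differed by 0.22 on the log2 scale (adjusted p = 0.098, edgeR), and Cycs, the somatic cytochrome c that carries electrons from complex III to complex IV, was called higher at 0.36 (adjusted p = 0.040). Cycs had 15.5, 13.4 and 16.1 FPKM in the controls and 21, 18 and 18.9 FPKM in the mutants, without overlap, and it was not called in any of the 6 fits that left out 1 sample. Cyct, the testis cytochrome c gene, was at 0 to 2 counts and was not tested.

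Complex IV held 3 of the 5 calls. Ndufa4 is a subunit of complex IV although it was first named as one of complex I. Its gene lies at chr6:11900373-11907495 on the minus strand of GRCm38. Ndufa4 had 378.0, 361.2 and 433.1 FPKM in the controls and 820.2, 555.8 and 516.6 FPKM in the mutants. All mutants lay above all controls, and mutant 1 lay far above the other mutants. The log2 fold change was 0.69 (SE 0.17), a fold of 1.61 with a 95% interval of 1.24 to 2.09 (adjusted p = 0.026, edgeR). Without mutant 1 it was 0.45 (adjusted p = 0.014). The call was lost without control 1 (0.66, adjusted p = 0.086) or control 2 (0.63, adjusted p = 0.12) and with offsets for transcript length (0.54, adjusted p = 0.052), which became 0.29 (adjusted p = 0.18) with GC content added. No 50-base window of its transcripts occurred in another gene. AA467197, a gene of the same family that was looked at after the values of Ndufa4 were seen, had 91.9, 82.4 and 107.6 FPKM against 183.5, 103.3 and 68.9 FPKM. These groups overlapped (log2 fold change 0.34, adjusted p = 0.50, edgeR), with mutant 1 again the highest sample. The 6 leukocyte markers, among which Itgam and Cd68 held nearly all of the level, also summed highest in mutant 1, with 120.7, 89.4 and 73.4 FPKM in mutants 1, 2 and 3 against 81.2 to 89.2 FPKM in the controls. The pan-leukocyte gene Ptprc had at most 14 counts in any library, Adgre1 at most 3 and Cd3e at most 5. Lyz2 had 0, 0 and 1 counts in the controls and 23.7, 13 and 3.79 in the mutants. The sum is thus mostly that of Itgam and Cd68 and does not measure leukocyte content. Neither Itgam nor Cd68 was called. By staining, the study saw immune cell infiltration in older mutants and not at 2 months of age. The part of leukocytes in the level of Ndufa4 was not tested.

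**Figure D3:**
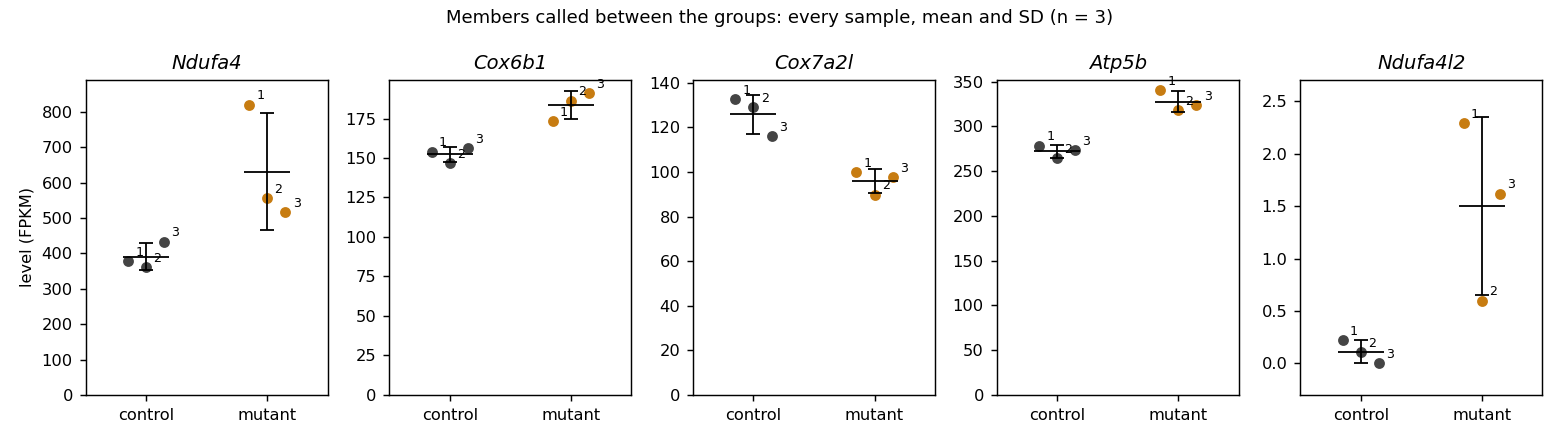
Level (FPKM, axes from 0, with a small margin below 0 for Ndufa4l2) of the 5 called members in each of the 3 control and 3 mutant samples, numbered by replicate, with the mean and SD of each group. The groups do not overlap in any panel, and the mutant mean of Ndufa4, 630.8 FPKM, is drawn up by mutant 1 at 820.2 FPKM.

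Cox7a2l was the only member called lower, and the only structural subunit whose call held in all 17 alternative fits. Its product is related to subunit 7A and is described as a supercomplex factor. Whether it acts as one in these mice was not tested. The gene lies at chr17:83501917-83514333 on the minus strand. Cox7a2l had 132.6, 129.1 and 116.1 FPKM in the controls and 99.98, 89.73 and 97.65 FPKM in the mutants. The lowest control lay above the highest mutant. The log2 fold change was -0.40 (SE 0.077), a fold of 0.760 with a 95% interval of 0.674 to 0.857 (adjusted p = 0.0092, edgeR), and it ran from -0.44 to -0.36 over the alternatives. Of its 50-base windows, 17.8% also occur in Gm6969, a gene with a near-identical stretch. Cox7a2, the general isoform of subunit 7A, had 31.0, 31.5 and 36.4 FPKM against 39.0, 31.8 and 34.5 FPKM, with overlap and a log2 fold change of 0.09. The muscle isoform gene Cox7a1 stayed between 1.07 and 3.05 FPKM in all 6 samples.

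Cox6b1, the general isoform of subunit 6B at chr7:30616974-30626151 on the minus strand, was called higher by a small margin. It had 154.0, 146.9 and 156.3 FPKM in the controls and 173.3, 186.4 and 191.0 FPKM in the mutants, without overlap. The log2 fold change was 0.27 (SE 0.073), a fold of 1.2 with a 95% interval of 1.07 to 1.35 (adjusted p = 0.042, edgeR). It was called in 5 of 17 alternative fits, and its log2 fold change fell to 0.14 with length offsets (adjusted p = 0.21). The testis isoform gene Cox6b2 had 3, 3 and 4 counts against 1, 2 and 4 counts and was not tested.

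The other general isoforms of complex IV overlapped between the groups or did not pass the test. Cox4i1 lay between 121.0 and 141.3 FPKM in all 6 samples, while the lung isoform gene Cox4i2 had at most 3 counts in any of them. Cox6a1 (136.3 to 161.2 FPKM over the 6 samples) and Cox8a (146.4 to 167.3 FPKM) had log2 fold changes of 0.10 and -0.01. Cox7b had 43.0, 42.4 and 44.4 FPKM against 49.1, 45.5 and 47.1 FPKM, without overlap, and a log2 fold change of 0.12 (adjusted p = 0.31, edgeR). Cox6a2, Cox7b2 and Cox8b were not among the genes that the prefix rule found in the deposited table. The general isoform was thus far above the tissue-restricted one in each of the pairs for subunits 4, 6B and 7A, in both groups. The summed level of complex IV was 1491 ± 55.9 FPKM in the controls and 1780 ± 206 FPKM in the mutants (SD, n = 3). Mutant 1 had 2018 FPKM, and mutants 2 and 3 had 1664 and 1659 FPKM. Ndufa4 was the most abundant transcript of the complex in every sample. Without Ndufa4, the median log2 fold change of the complex was 0.09.

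In complex V, 1 of 16 members was called. Atp5b encodes the catalytic beta subunit of the F1 head and lies at chr10:128083307-128090388 on the plus strand. Atp5b had 278.4, 264.2 and 273.4 FPKM in the controls and 340.6, 318.1 and 323.3 FPKM in the mutants, without overlap. The log2 fold change was 0.26 (SE 0.072), a fold of 1.2 with a 95% interval of 1.07 to 1.34 (adjusted p = 0.039, edgeR). Its size ran only from 0.23 to 0.28 over 17 alternative fits, and the adjusted p passed the threshold in 8 of them, never with a sample left out. None of the other 4 genes of the F1 head was called in the same fit. Atp5a1, the alpha subunit that alternates with beta in the same ring, had a log2 fold change of -0.01 with a fold interval of 0.875 to 1.13, and Atp5e, the epsilon subunit, had 50.9, 54.0 and 58.3 FPKM against 49.0, 42.2 and 47.9 FPKM, without overlap at -0.23 (adjusted p = 0.16, edgeR). Atp5e was called lower with length offsets and with length and GC offsets. The median over the 5 F1 genes was -0.01.

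The c ring, through which protons flow, is built of 1 protein that is encoded by 3 genes with different import sequences. Atp5g2 was the most abundant, at 174.2, 147.7 and 158.0 FPKM in the controls and 161.6, 162.1 and 176.3 FPKM in the mutants. Atp5g3 followed at 84.4, 78.5 and 77.8 against 96.0, 83.4 and 82.4 FPKM, and Atp5g1 had 61.5, 55.7 and 70.3 against 62.9, 81.7 and 89.8 FPKM. In the controls the levels of Atp5g2 and Atp5g3 did not overlap, nor did those of Atp5g3 and Atp5g1, whereas in the mutants Atp5g3 and Atp5g1 overlapped. The log2 fold changes were 0.06, 0.12 and 0.32, and none passed the test. That of Atp5g1 had an SE of 0.13 (adjusted p = 0.16, edgeR) and passed only without mutant 1, at 0.45 (adjusted p = 0.021). Windows shared with other genes made up 38.3% of Atp5g2, so that its level is less certain than that of Atp5g3, which shared none.

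Ndufa4l2, a paralog of Ndufa4 that is best known as a target of hypoxia-inducible factor, had the largest fold of the members at a very low level. It had 4, 2 and 0 counts in the controls and 42, 11 and 30 counts in the mutants, that is 0 to 0.22 FPKM against 0.60 to 2.29 FPKM. The 83 counts of the mutants against 6 counts of the controls gave a depth-adjusted ratio of 13.8, with an exact 95% interval of 6.07 to 38.6 that covers counting error only. The edgeR log2 fold change was 3.71 (SE 0.73, adjusted p = 0.0096). Ndufa4l2 passed the filter on low counts only through the mutants, so that its call gives no support beyond the counts themselves. The call was lost without control 2 (adjusted p = 0.057). Several markers of stromal cells were also near 0 in the controls and higher in the mutants. Dcn had 3, 2 and 1 counts against 66, 34 and 14, Col1a1 had 1, 1 and 2 against 23, 23 and 6, and Lum had 0, 1 and 0 against 23, 10 and 0, while the keratocyte marker Kera had at most 2 counts in any library. The 8 stromal markers summed to 0.35 to 0.59 FPKM in the controls and 1.13 to 4.11 FPKM in the mutants, and 1 of them, Dcn, was called. Dcn, too, passed the filter only through the mutants. Thy1, with 10, 7 and 15 counts against 17, 18 and 13, overlapped between the groups and was not called. Among the endothelial markers, Pecam1 had 2, 2 and 5 counts against 8, 7 and 14. Cdh5 had 0, 0 and 1 against 3, 1 and 0, and Kdr had 0, 0 and 0 against 2, 1 and 0. By staining, the study saw corneal vessels in older mutants and not at 2 months of age. The part of stromal and endothelial cells in the counts of Ndufa4l2 was not tested.

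The remaining genes with the prefixes gave no calls. Among the assembly factors of complex II, Sdhaf1 had a log2 fold change of 0.23 without overlap (adjusted p = 0.31, edgeR), but 69.6% of its exon bases overlap those of another gene. Sdhaf2, Sdhaf3, Sdhaf4 and Atp5s had values from -0.20 to -0.03. Ndufb4c had 16.4 ± 1.56 FPKM in the controls and 15.9 ± 3.08 FPKM in the mutants (SD, n = 3), and 37.0% of the 50-base windows of Ndufb4 occur in it. Ndufa11b had 0 counts in 5 of 6 libraries and was not tested. Of 83 tested members with transcript sequences, 13 shared at least 20% of their windows with other genes.

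The small lean of the members towards higher values came with shifts of single samples. For each of the 82 members with at least 10 counts in every sample, the deviation of its log2 CPM from the mean of the 6 samples was taken. The median deviation was -0.11 in control 2 and 0.08 in mutant 1, and lay between -0.01 and 0.03 in the other 4 samples, while the median over all tested genes stayed within 0.005 of 0 in each sample. Control 2 was the lowest of the 6 samples for 43 of the 82 members, and mutant 1 was the highest for 32. Mutants 2 and 3 and controls 1 and 3 therefore lay close to each other. Without control 2 the median log2 fold change of the 84 members was 0.02 and 1 member, Cox7a2l, was called. Over all genes 6.66% were called in that fit. Without mutant 1 the median was 0.05 and 9 members were called, with Sdhb and Ndufb3 joining Cox7a2l on the lower side and Atp5g1, Ndufa3 and Ndufv3 on the higher side. In that fit 14.6% of all genes were called, against 13.2% with all 6 samples.

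**Figure D4:**
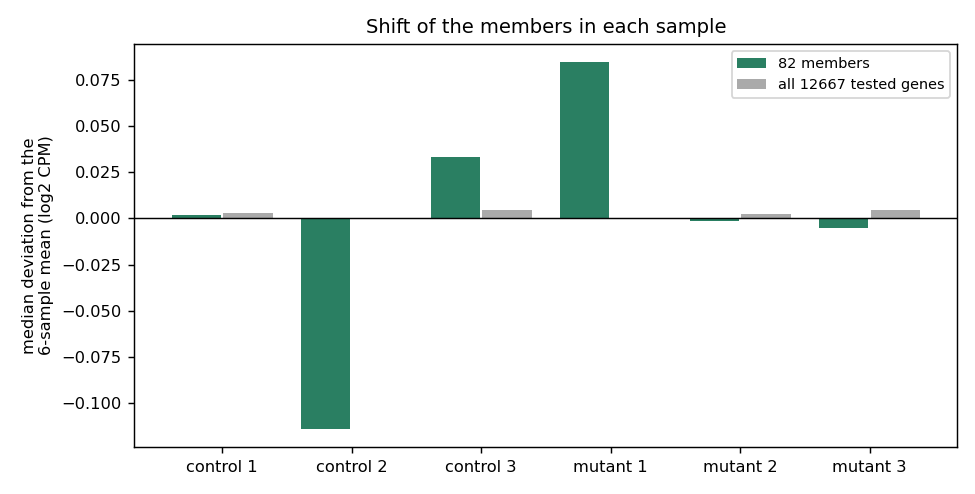
Median deviation of log2 CPM from the mean of the 6 samples, for the 82 members with at least 10 counts in every sample (green) and for all 12667 tested genes (grey), in each sample. Control 2 lies at -0.11 and mutant 1 at 0.08, and the grey bars stay near 0.

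The members have short annotated transcripts, with a median length of 704 bases against 2140 bases over the table. A gene's length was the median over its annotated protein-coding transcripts. For some members it departed from the effective length in control 1: 651 against 2755 bases for Ndufs1, 533 against 1647 for Uqcrc1 and 2675.5 against 777 for Atp5g1. The length classes and offsets rest on the annotated lengths and share this limit. Among all tested genes, the median log2 fold change was 0.07 for the 173 genes with transcripts under 500 bases, 0.02 for the 649 genes of 500 to 700 bases, and -0.01 for those over 2000 bases. The members in the same length classes had medians of 0.17 (12 genes) and 0.06 (29 genes). With offsets for length, the median of the members was 0.02, and with offsets for length and GC content 0.01. With offsets from a curve that gives less weight to strongly changed genes, chosen after seeing the data, it was 0.05 for length and 0.04 for length and GC content, and 4 members were called, Atp5b, Cox7a2l, Ndufa4 and Ndufa4l2. Whether length as such acts on the measured values was not tested.

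The other genes that build or serve the chain were read against the same background, 13.2% of all tested genes called, 7.82% higher and 5.42% lower. Of 50 tested assembly factors, 1 was called, Uqcc2, which helps to assemble complex III and was higher by 0.60 on the log2 scale (adjusted p = 0.024, edgeR), and their median was -0.003. Uqcc2 had 44.4, 33.1 and 45.2 FPKM in the controls and 55.1, 58.3 and 73.8 FPKM in the mutants, without overlap, and lost its call without control 1, without control 2 and with length offsets. None of 13 regulators of mitochondrial biogenesis was called (0 by edgeR and by DESeq2). Among them Nrf1 had a log2 fold change of 0.17, Gabpa of 0.002, Tfam of 0.07 and Ppargc1a, at 17 to 25 counts, of -0.38. Of 14 enzymes of the tricarboxylic acid cycle, which feeds electrons to the chain, only Ogdh was called, lower by 0.26 on the log2 scale (adjusted p = 0.036, edgeR). Of 78 mitochondrial ribosomal protein genes, which serve the translation of the subunits encoded in mitochondrial DNA, 4 were called higher and none lower, with a median of 0.11. Mrpl33 led them at 0.69 (adjusted p = 0.010, edgeR), with 16.9, 15.3 and 14.7 FPKM against 28.5, 21.6 and 25.4 FPKM. Of 81 cytosolic ribosomal protein genes, 2 were called lower, Rps14 at -0.43 and Rps21 at -0.31, with a median of 0.01. Usmg5, a small subunit of complex V outside the prefixes, differed by 0.18 (adjusted p = 0.40, edgeR).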

How the data were processed

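RNA of separated corneal epithelium was sequenced by the authors as single-end 50-base reads. The labels name a TruSeq kit, whereas the study's methods name Ribo-Zero depletion. The authors filtered the reads, aligned them with Bowtie2 2.2.5 and deposited an expected count per gene and sample from RSEM 1.2.12, with neither normalization nor pooling. The authors also deposited FPKM values, scaled by transcript length and library total. The deposited log2 fold changes, p-values, q-values and group means come from the authors' own comparison and were not used. The processing notes name mm9, but the table's chromosome accessions are those of GRCm38, which is used here.

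Samples were grouped by genotype label. Expected counts were rounded and tested with edgeR 4.0.16 in R 4.3.3: TMM factors, filterByExpr (count minimum 10, total minimum 15) and a quasi-likelihood test between genotypes. Each standard error was derived from the F statistic of the gene. P-values were adjusted after Benjamini and Hochberg over the 12667 tested genes, and a gene was called at an adjusted p under 0.05. Alternatives were DESeq2 1.42.0, limma 3.58.1 on log2(FPKM + 1) and log2(FPKM + 0.1), other scalings and filters, length and GC offsets (loess, span 0.5), a replicate block and leaving out each sample. Transcript lengths, GC content and shared 50-base windows came from GENCODE M21. Length and GC content of a gene were medians over its annotated protein-coding transcripts. Counting intervals are exact and cover counting error only. The fits were tested on simulated data. There edgeR called 43.9% of the 66 genes changed by 0.5 on the log2 scale and 80.9% of the 68 changed by 1. Changes below 0.5 were not simulated, so a small change can go uncalled.

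The members, gene lists and tests were chosen with earlier results of these data known. Named genes are, per complex, the called members with the smallest adjusted p, the member with the highest mean FPKM, members past the study's thresholds, the isoform pairs, the complex II subunits, the subunits outside the prefixes and the leading called genes of the other lists. The tests treat samples of a group as separate mice. The labels do not say so, and the spread between samples may be partly technical.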

Additional observations from a re-analysis of the deposited data

How the results depend on the processing

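The count of 5 called members (4 higher, 1 lower) was 5 with DESeq2, 6 with either limma fit, 6 with length and GC offsets and 5 with length offsets. It was 3 (2 higher) with no filter, with upper-quartile scaling and with a block for the replicate number. Only 2 members were called higher with length offsets, and 3 were called lower with length offsets (Cox7a2l, Atp5e and Uqcr10) and with length and GC offsets (Cox7a2l, Atp5e and Atp5l), the latter with Ndufa13 called higher. The median of complex I was -0.01 with length and GC offsets, and that of complex V was 0.02 with length offsets. With samples left out the count ran from 1 to 9, the higher calls from 0 to 6 and the lower calls from 1 to 3. Called numbers changed most without control 2 (1 member, Cox7a2l) and without mutant 1 (9 members). Over all tested genes the share called moved as well, to 6.66% without control 2 and 14.6% without mutant 1. It was 13.2% in the first fit and ran from 9.88% with no filter to 16.1% with length and GC offsets in the other alternatives. DESeq2 put 1 member past the thresholds of the study. The median log2 fold change of the members stayed positive in all alternatives, from 0.01 to 0.09.

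Same-numbered samples did not visibly deviate together (correlations of 0.02, 0.05 and -0.05 across genes for numbers 1, 2 and 3). The numbers were not used as pairs outside the block, and these correlations cannot exclude a pairing. The median of the members was 0.06 with the block. The block kept the calls of Cox7a2l, Ndufa4 and Ndufa4l2 and not those of Atp5b (adjusted p = 0.084) and Cox6b1 (0.082).

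For the other lists, DESeq2 called 2 assembly factors and the length offsets 0. With samples left out the calls ran from 0 to 2 for assembly factors, from 0 to 1 for biogenesis regulators, 0 in each fit for subunits outside the prefixes, from 0 to 2 for the tricarboxylic acid cycle, from 0 to 3 for mitochondrial ribosomal proteins and from 1 to 9 for cytosolic ribosomal proteins. The causes of these changes were not tested. With 3 samples a group, no exact permutation test of a single value can go below p = 0.1. Ndufa4l2 was not tested under the minimum of 10 counts in every sample.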
